A study of Rattus norvegicus with 10 samples.

Results

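Genes of milk proteins and of the milk fat globule were described across 10 arrays of immature rat mammary gland. The set holds 10 genes, Csn1s1, Csn1s2a, Csn2, Csn3, Wap, Lalba, Glycam1, Btn1a1, Xdh and Mfge8, and a member was read from each probe set whose platform annotation names that 1 gene. Of the 10 members, 8 had 1 probe set each, among 10411 genes named by such probe sets, while Csn1s2a and Btn1a1 had no match and were not analysed here. Whole glands of female SD rats were taken at postnatal day 21, around weaning, and gene expression was read as the MAS5 signal of 1-colour arrays. The soy group comprised 5 arrays of rats exposed from gestation day 4 to AIN-93G, a purified rodent diet, with soy protein isolate as its protein, and the casein group 5 arrays of rats exposed likewise to AIN-93G with casein. Pooled RNA and replicate targets made from a pool are mentioned in the labels, so arrays may share animals, and the p-values then measure a spread that is technical in part. Arrays are called by diet and by the number in their label, and signals are given on the log2 scale.

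Milk is made by luminal epithelial cells of the mammary gland. Prolactin, acting through its receptor, the kinase JAK2 and the transcription factor STAT5, together with glucocorticoid, switches on caseins and whey proteins. The caseins Csn1s1, Csn1s2a, Csn2 and Csn3 form the micelles that carry calcium and phosphate. Lalba, alpha-lactalbumin, is the subunit that makes a galactosyltransferase produce lactose, and Wap is the whey acidic protein of rodent milk. The fat globule is secreted inside a membrane that carries butyrophilin (Btn1a1), xanthine oxidoreductase (Xdh) and lactadherin (Mfge8). Glycam1 is a mucin-like protein of milk, and it is also made by the high endothelial vessels of lymph nodes, where a sulphated form binds L-selectin on lymphocytes.

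The 250 bases before the annotated start (RefSeq, GRCr8) are shown for 4 members whose signals are contrasted below. Csn1s1 and Lalba varied together, Csn2 stayed dim on nearly every array, and Glycam1 followed another pattern. The windows are chr14:20638850-20639099 (minus strand) for Csn1s1, chr14:20601574-20601823 (plus strand) for Csn2, chr7:131507073-131507322 (minus strand) for Lalba and chr7:136561300-136561549 (minus strand) for Glycam1. Capitals mark TTCNNNGAA, the palindromic core bound by STAT factors, which reads the same on both strands.
Csn1s1: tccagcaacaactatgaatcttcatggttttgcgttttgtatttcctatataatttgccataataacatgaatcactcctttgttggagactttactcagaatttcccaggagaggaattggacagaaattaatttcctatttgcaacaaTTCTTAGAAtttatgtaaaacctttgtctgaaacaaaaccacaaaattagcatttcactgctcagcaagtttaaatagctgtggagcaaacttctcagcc
Csn2: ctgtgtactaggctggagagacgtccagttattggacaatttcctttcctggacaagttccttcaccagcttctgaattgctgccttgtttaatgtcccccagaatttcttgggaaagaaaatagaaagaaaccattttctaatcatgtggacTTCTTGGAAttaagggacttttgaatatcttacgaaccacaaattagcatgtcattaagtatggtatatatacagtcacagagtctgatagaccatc
Lalba: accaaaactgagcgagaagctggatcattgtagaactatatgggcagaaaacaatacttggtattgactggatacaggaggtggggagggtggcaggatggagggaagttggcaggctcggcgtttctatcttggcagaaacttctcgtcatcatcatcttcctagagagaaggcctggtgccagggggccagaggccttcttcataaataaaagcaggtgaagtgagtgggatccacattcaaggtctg
Glycam1: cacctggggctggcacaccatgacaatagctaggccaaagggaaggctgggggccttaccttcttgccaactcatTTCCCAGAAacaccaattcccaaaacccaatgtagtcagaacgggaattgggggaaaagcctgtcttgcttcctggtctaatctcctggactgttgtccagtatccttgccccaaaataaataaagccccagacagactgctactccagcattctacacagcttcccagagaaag
All 10 members had a window, and 4 of them (40%) held the letters TTCNNNGAA, against 7.67% of 33469 windows of the same length. The match began 100 bases before the start in Csn1s1, 102 in Csn1s2a, 97 in Csn2 and 175 in Glycam1. Csn1s1, Csn1s2a and Csn2 are casein genes that lie close together on chromosome 14, so their matches may not be independent. The windows of Lalba, Csn3, Wap, Btn1a1, Xdh and Mfge8 did not hold these letters. A match describes the sequence only.

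The glands differed in the signal of tissue markers, within both diets. Of 11 luminal epithelial genes on the array, 8 had their lowest values in soy 149, soy 159 and casein 6, where the list mean was 5.65 to 6.73 against 7.57 to 9.58 in the other 7 arrays. Of 13 lymph node and lymphocyte genes, 11 had their lowest values in soy 149 and casein 6, where the list mean was 6.62 to 6.94 against 9.36 to 10.07 in the other 8. All 8 skeletal muscle genes were highest in soy 147, soy 149, soy 157 and casein 6, with list means of 12.52 to 14.00 against 5.93 to 8.14 in the other 6 arrays. No listed marker was at the floor, a signal of 1, in any array, which does not show that each was detected. Krt18 was 4.49 in casein 6 and Epcam 4.53 in soy 159, and 5 of the 11 luminal genes had a mean too dim to be tested. Fewer cells of a type and less RNA per cell cannot be told apart in such samples.

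Csn1s1, alpha-s1-casein, varied more between arrays of the same diet than nearly any other transcript. Its log2 signal was 10.78, 8.91, 10.68, 10.88 and 6.94 in soy 147, 149, 155, 157 and 159. It was 6.66, 11.90, 10.72, 10.99 and 9.80 in casein 6, 7, 10, 18 and 20. The lowest array of each diet lay far under the rest, and the diets overlapped almost entirely. The range over the 10 arrays was 37.8-fold, from casein 6 to casein 7, and the SD within a diet, 1.87, exceeded that of 99.4% of the probe sets tested, whose median was 0.23. Soy 159 and casein 6 were below 7.47 (a signal of 177), the mean level a probe set needed to be tested, and since no signal was set against background there, the fold is not exact.

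Lalba followed Csn1s1 from array to array. Its log2 signal was 11.87, 9.57, 11.20, 11.58 and 7.12 in soy 147, 149, 155, 157 and 159. It was 6.41, 11.81, 10.57, 11.40 and 10.55 in casein 6, 7, 10, 18 and 20. The same arrays, soy 149, soy 159 and casein 6, were the lowest for both genes, and the diets again overlapped. The range was 44.1-fold, which is not exact since soy 159 and casein 6 were below 7.47, and the SD within a diet was 2.07, above that of 99.6% of the probe sets tested. Across the 10 arrays Lalba and Csn1s1 had a Pearson r of 0.98, a description of probe sets read from the same arrays.

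**Figure D1:**
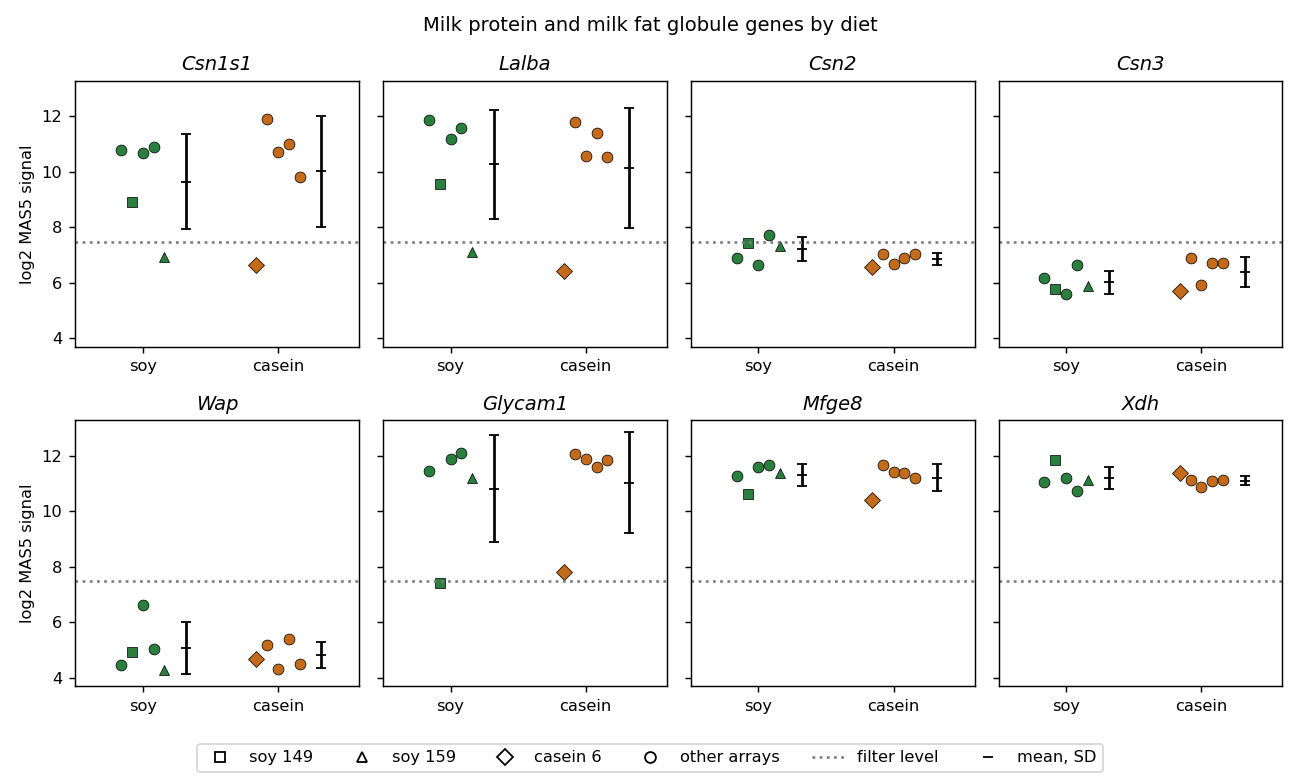
Log2 MAS5 signal (y axis) of 8 members in 5 soy and 5 casein arrays, each point 1 array, with the mean and SD of each diet beside the points and the filter level of 7.47 as a dotted line. Csn1s1, Lalba and Glycam1 spread over several log2 units within each diet, with soy 159 (triangle) low for Csn1s1 and Lalba but not for Glycam1, and levels are not comparable between panels.

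Both transcripts went with the luminal keratins Krt8 and Krt18, the filament pair of simple epithelium. Each member was set against Krt8, Krt18 and the leukocyte tetraspanin Cd37, which makes 24 relations, and 5 had an adjusted p below 0.05 in permutation tests of Pearson's r. Krt8 itself was 9.92, 7.72, 9.69, 9.33 and 6.96 in soy 147, 149, 155, 157 and 159, and 7.32, 11.33, 9.49, 10.28 and 8.92 in casein 6, 7, 10, 18 and 20. For Csn1s1, r was 0.95 with Krt8 and 0.94 with Krt18 (permutation p = 2e-05 and adjusted p = 0.00024 for both), and Spearman's rho was 0.90 (p = 0.00072, adjusted p = 0.0058) and 0.94 (p = 0.00021, adjusted p = 0.005). For Lalba, r was 0.89 with Krt8 (permutation p = 0.00016, adjusted p = 0.00096) and 0.93 with Krt18 (p = 4e-05, adjusted p = 0.00032), with rho of 0.87 (p = 0.0023, adjusted p = 0.014) and 0.92 (p = 0.00059, adjusted p = 0.0058). These relations did not rest on the 2 arrays with extreme keratin signal. Without soy 159 and casein 6, r was 0.96 and 0.97 for Csn1s1 and 0.84 and 0.89 for Lalba. The relations to Cd37 did not pass the test (r = 0.41, permutation p = 0.25, adjusted p = 0.37 and rho = 0.20, p = 0.59, adjusted p = 0.66 for Csn1s1; r = 0.35, permutation p = 0.32, adjusted p = 0.45 and rho = 0.13, p = 0.74, adjusted p = 0.77 for Lalba). A diet of 5 arrays is too small for a coefficient of its own, so diet was kept as a term in a linear model instead. Adding the mean of Krt8 and Krt18 to diet lowered the residual SD to 0.49, against 1.87 with diet alone, for Csn1s1, and to 0.68, against 2.07, for Lalba. The slope was 1.10 for Csn1s1 and 1.19 for Lalba per log2 unit of keratin signal. The residual SD also fell for Glycam1, from 1.87 to 1.30, and for Mfge8, from 0.44 to 0.27. It went from 0.48 to 0.40 for Csn3, 0.74 to 0.72 for Wap, 0.31 to 0.29 for Xdh and 0.34 to 0.36 for Csn2. The Glycam1 model held soy 149 and casein 6, which lay far under its other arrays, so its fall may rest on them. In limma, the SE of the Glycam1 diet difference was 0.98 with diet alone, 0.66 with the keratin covariate and 0.51 with Cd37 instead.

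**Figure D2:**
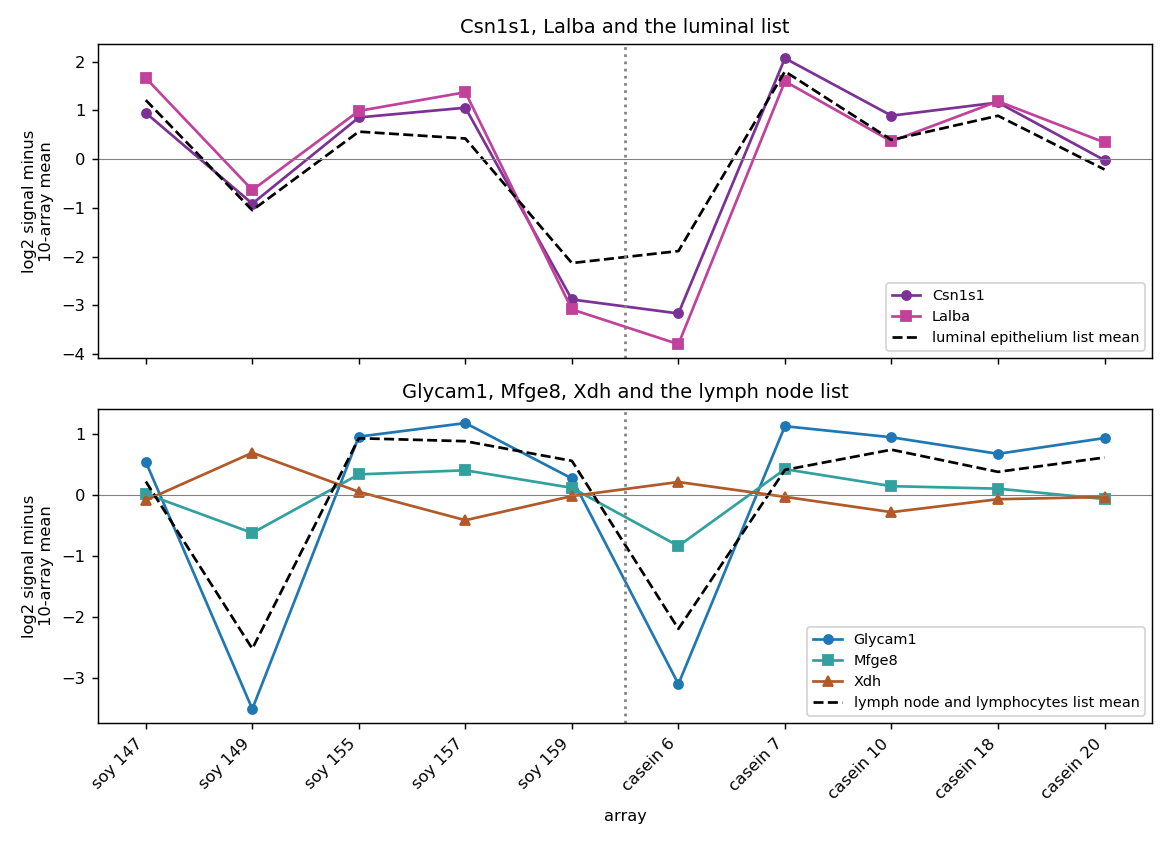
Log2 signal minus its mean over the 10 arrays (y axis) in each array (x axis, soy left of the dotted line, casein right of it) for Csn1s1, Lalba and the luminal list mean above, and for Glycam1, Mfge8, Xdh and the lymph node list mean below. Csn1s1 and Lalba are low in soy 149, soy 159 and casein 6 with the luminal list, and Glycam1 is low in soy 149 and casein 6 with the lymph node list.

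Luminal and smooth muscle genes were among those most like these in pattern over the 10 arrays. Both lists of 3 genes held Krt19, a luminal keratin (r = 0.97 with Csn1s1 and 0.94 with Lalba), and Actg2, a smooth muscle actin (0.97 and 0.95). For Csn1s1 the remaining gene was Csnk1d, a casein kinase that is no milk protein despite its name (0.95), and for Lalba it was Sphk1, a sphingosine kinase (0.95). These values describe shared variation between probe sets of the same arrays and carry no test. Of the 6 basal and myoepithelial genes on the array, 4 were also lowest in soy 149, soy 159 and casein 6. Muscle genes divided the arrays otherwise. Their list mean was high in soy 149 (13.50) and casein 6 (13.69) but lowest in soy 159 (5.93). It was also high in soy 147 and soy 157, where Csn1s1 was 10.78 and 10.88. A relation of the members to muscle signal was not tested.

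The other caseins and Wap were dim, and their probe sets were not tested because their mean lay under the filter level. Csn2, beta-casein, had log2 signals of 6.90, 7.45, 6.66, 7.72 and 7.34 in soy 147, 149, 155, 157 and 159. It had 6.58, 7.05, 6.67, 6.89 and 7.05 in casein 6, 7, 10, 18 and 20. Only soy 157 exceeded 7.47, and soy 149, 157 and 159 lay above every casein array while soy 147 and 155 lay among them. The range over the 10 arrays was 2.19-fold, and the Pearson r with Csn1s1 was -0.01, a description. Its relations to Krt8, Krt18 and Cd37 did not pass the test (r = -0.19, 0.09 and -0.34, permutation p = 0.59, 0.80 and 0.34, adjusted p = 0.65, 0.80 and 0.45; rho = -0.24, -0.07 and -0.24, p = 0.51, 0.86 and 0.52, adjusted p = 0.66, 0.86 and 0.66). The difference between the diets was 0.36 ± 0.22 (SE, n = 5 per diet) in the fit without a filter, with a 95% interval of -0.11 to 0.84. Without soy 155, the lowest soy array, it was 0.50 with an interval of 0.054 to 0.95, which did not hold 0. With any other single array left out the interval held 0, and no interval was adjusted for the number of refits. Without soy 157 the difference was 0.24.

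Csn3, kappa-casein, which caps the casein micelle, reached 7.47 on 0 arrays. Its log2 signals were 6.19, 5.77, 5.59, 6.65 and 5.88 in soy 147, 149, 155, 157 and 159, and 5.69, 6.88, 5.92, 6.70 and 6.71 in casein 6, 7, 10, 18 and 20. The 3 highest values were in casein-fed glands, but soy 157 lay close to them and casein 6 among the lowest, so the diets overlapped (difference -0.36 ± 0.30, SE, 95% interval -1.01 to 0.29). Its relation to the keratins had the same sign as that of Csn1s1 but did not pass the test (r = 0.62 with Krt8, rho = 0.52, permutation p = 0.059 and 0.13, adjusted p = 0.15 and 0.32; r = 0.58 with Krt18, rho = 0.56, permutation p = 0.064 and 0.097, adjusted p = 0.15 and 0.32). Among the 15 alternatives run for correlations, the relation to Krt18 passed only without soy 155 (r = 0.75, adjusted p = 0.034, exact permutation test). With Cd37 r was 0.25 (permutation p = 0.53, adjusted p = 0.60) and rho 0.19 (p = 0.61, adjusted p = 0.66).

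Wap reached the filter level on 0 arrays. Its log2 signals were 4.47, 4.93, 6.62, 5.02 and 4.26 in soy 147, 149, 155, 157 and 159, against 4.68, 5.19, 4.31, 5.40 and 4.48 in casein 6, 7, 10, 18 and 20. All but soy 155 lay close together, and the diets overlapped. The difference of 0.25 ± 0.43 (SE, 95% interval -0.71 to 1.20) turned to -0.15 without soy 155. Without this array, which stood apart, the relations of Wap to Krt8, Krt18 and Cd37 did not pass the test (r = 0.51, 0.32 and -0.19, exact permutation p = 0.16, 0.42 and 0.65, adjusted p = 0.29, 0.51 and 0.68; rho = 0.53, 0.55 and -0.22, exact permutation p = 0.15, 0.13 and 0.58, adjusted p = 0.32, 0.32 and 0.66). At these signals a low transcript level and the background of the array cannot be told apart, since detection calls were not used here.

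Glycam1 was high in 8 arrays and low in 2, one of each diet. Its log2 signal was 11.46, 7.40, 11.87, 12.10 and 11.19 in soy 147, 149, 155, 157 and 159. It was 7.81, 12.04, 11.86, 11.59 and 11.85 in casein 6, 7, 10, 18 and 20. The low arrays, soy 149 and casein 6, are those with low lymphocyte signal, and the other 8 lay within 11.19 to 12.10. In soy 149 it was below 7.47, and the range over the 10 arrays was 25.8-fold, again with no background to set it against.

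Glycam1 thus parted from Csn1s1 and Lalba in soy 159. In that array Csn1s1 was 6.94 and Lalba 7.12, and the luminal list mean of 5.65 was the lowest of all, whereas Glycam1 was 11.19 and the lymph node list mean was 9.70. Cd37 was 9.01, 6.98, 10.69, 9.36 and 9.54 in soy 147, 149, 155, 157 and 159, and 8.43, 9.67, 9.93, 9.46 and 10.08 in casein 6, 7, 10, 18 and 20. The 2 arrays lowest in Cd37 were the 2 lowest in Glycam1. Since soy 149 and casein 6 stood apart, no correlation with Cd37, Krt8 or Krt18 was taken over all arrays. Within the other 8 arrays no relation passed the test, with r of 0.35 with Cd37 (exact permutation p = 0.39, adjusted p = 0.50), 0.60 with Krt8 (p = 0.12, adjusted p = 0.24) and 0.64 with Krt18 (p = 0.086, adjusted p = 0.19). Spearman's rho was 0.24, 0.24 and 0.31 in the same order (exact permutation p = 0.58, 0.58 and 0.46, adjusted p = 0.66 for each). The keratin coefficients rested on soy 159, without which they were 0.01 and 0.09. Without the 2 arrays farthest from the median of each marker, r was 0.15 with Cd37, -0.68 with Krt8 and -0.55 with Krt18.

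**Figure D3:**
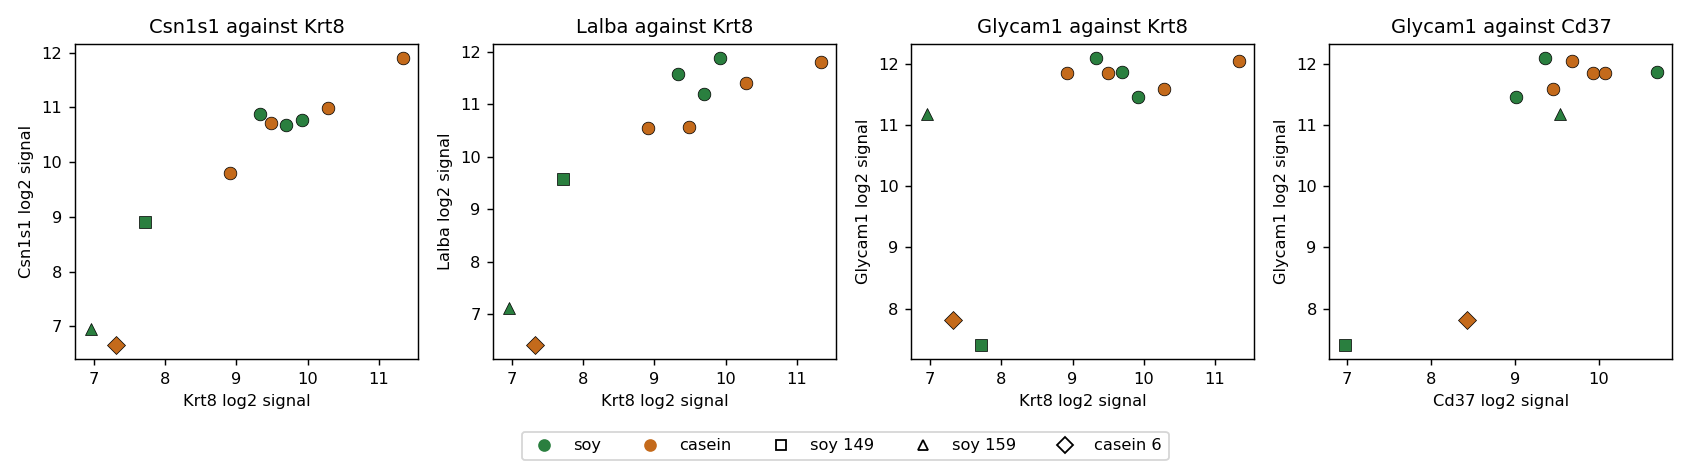
Log2 signal of Csn1s1, Lalba and Glycam1 (y axes) against the luminal keratin Krt8 or the leukocyte gene Cd37 (x axes), each point 1 of 10 arrays, coloured by diet. Csn1s1 and Lalba climb with Krt8 through both diets, while Glycam1 is 11.19 in soy 159 at the lowest Krt8 signal and low only in soy 149 and casein 6, the arrays lowest in Cd37.

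The 3 genes most like Glycam1 over the 10 arrays were Bicdl1, a dynein adaptor, Acap1, an Arf GTPase-activating protein, and Tcf7, a T cell transcription factor. As a description, their Pearson r with Glycam1 was 0.99 for each over all arrays, of which soy 149 and casein 6 stood apart. Without those arrays it was 0.76, 0.65 and 0.67 in the same order. Of 10 genes listed for high endothelial vessels and lymph node stroma, 3 were on the array, Cxcl13, Madcam1 and Podxl. Their mean was 9.46 in soy 149, within the 9.38 to 9.67 of the other soy arrays, and 9.08 in casein 6, below the 9.29 to 9.52 of the other casein arrays. Madcam1, an adhesion molecule of mucosal vessels, was 8.16 in soy 149, its highest value, and 7.08 in casein 6, its lowest. Cxcl13 went the other way in soy 149, at 10.78, its lowest value. In casein 6 it was 11.06, within the 10.86 to 11.38 of the other casein arrays. Podxl was 9.45 in soy 149 and 9.10 in casein 6, its lowest value. The sulphotransferase and fucosyltransferase that finish the L-selectin ligand, Chst4 and Fut7, were not analysed here, so the part of these vessels in the Glycam1 signal was not tested.

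Mfge8 and Xdh were above the filter level in all 10 arrays and varied less between arrays, with ranges of 2.40-fold and 2.15-fold. Mfge8, which bridges phosphatidylserine on dying cells to integrins of phagocytes besides coating fat globules, had log2 signals of 11.28, 10.63, 11.59, 11.66 and 11.37 in soy 147, 149, 155, 157 and 159. It had 10.42, 11.68, 11.40, 11.36 and 11.19 in casein 6, 7, 10, 18 and 20. As for Glycam1, soy 149 and casein 6 were lowest, and the other 8 arrays lay within 11.19 to 11.68. Its r was 0.84 with Krt18 (permutation p = 0.0045, adjusted p = 0.022), but rho was 0.61 (p = 0.066, adjusted p = 0.31) and r was 0.65 without casein 6. With Krt8 r was 0.67 (permutation p = 0.033, adjusted p = 0.11) and with Cd37 0.75 (p = 0.016, adjusted p = 0.063), with rho of 0.53 for both (p = 0.12, adjusted p = 0.32). Among the 15 alternatives run for correlations, the relation to Krt8 passed only without soy 159 (r = 0.87, adjusted p = 0.015, exact permutation test). That to Cd37 passed only with each array centred on its median (r = 0.76, adjusted p = 0.048). The genes most like Mfge8 were Ywhaz, a 14-3-3 protein (r = 0.99), Aaas, a nuclear pore protein (0.97), and Unc119 (0.96). Without soy 149 and casein 6 these values were 0.92, 0.81 and 0.79.

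Xdh ran the other way, with its highest values where Glycam1 and Mfge8 were lowest. Its log2 signals were 11.06, 11.84, 11.20, 10.73 and 11.13 in soy 147, 149, 155, 157 and 159, and 11.36, 11.11, 10.86, 11.07 and 11.11 in casein 6, 7, 10, 18 and 20. Soy 149 was the highest of the soy and casein 6 the highest of the casein arrays, while the other 8 lay within 10.73 to 11.20. The r of -0.72 with Cd37 did not pass (permutation p = 0.039, adjusted p = 0.12, rho = -0.20, p = 0.58, adjusted p = 0.66) and was -0.17 without soy 149. Among the 15 alternatives run for correlations, it passed only without soy 155, at -0.85 (adjusted p = 0.043, exact permutation test). With Krt8 and Krt18 r was -0.45 and -0.48 (permutation p = 0.19 and 0.17, adjusted p = 0.31 and 0.29; rho -0.42 and -0.45, p = 0.23 and 0.19, adjusted p = 0.43 and 0.39). As a description, its r was -0.45 with Csn1s1 and -0.40 with Lalba. The genes most like it were Zfyve21, Tmem88 and Akt1s1, an inhibitor of mTORC1 (r = 0.93 for each, and 0.73, 0.88 and 0.86 without soy 149 and casein 6).

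The comparison of the diets asks how soy protein affected the milk genes of the early gland, and no difference of a member exceeded the spread between arrays in the test. No member was called in limma with Benjamini-Hochberg adjustment over 9520 probe sets, where 0 probe sets were called in all (0.0%) and 433 (4.55%) had an unadjusted p below 0.05. Of the 5 members tested, 3 had a positive and 2 a negative soy minus casein difference, 0 had an unadjusted p below 0.05 and all overlapped between the diets, where the diets did not overlap for 0.798% of the probe sets tested. Over all 8 members the median soy minus casein difference was 0.09, against -0.01 over all probe sets tested.

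For Csn1s1 the mean log2 signal was 9.64 ± 1.71 in soy and 10.01 ± 2.02 in casein (SD, n = 5 each), a difference of -0.37 ± 0.99 (SE, adjusted p = 0.999 in limma). Its 95% interval ran from -2.53 to 1.78, and the value turned to 0.30 without soy 159 and 0.10 without casein 7, and was -1.21 without casein 6. For Lalba the means were 10.27 ± 1.97 in soy and 10.15 ± 2.16 in casein (SD), a difference of 0.12 ± 1.09 (SE, adjusted p = 0.999) with an interval from -2.26 to 2.50. Without soy 147, 155 or 157 or casein 6 it turned to values from -0.81 to -0.11, and it was 0.91 without soy 159. Without both soy 159 and casein 6 the differences were -0.54 ± 0.50 for Csn1s1 and -0.02 ± 0.47 for Lalba (SE). With the mean of Krt8 and Krt18 as a covariate they were -0.01 ± 0.26 for Csn1s1 (95% interval -0.58 to 0.55) and 0.52 ± 0.35 for Lalba (-0.26 to 1.29), with adjusted p of 0.997 and 0.86. Both narrower intervals still held 0.

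Glycam1 averaged 10.80 ± 1.93 in soy and 11.03 ± 1.81 in casein (SD), a difference of -0.23 ± 0.98 (SE, adjusted p = 0.999, 95% interval -2.38 to 1.93). It turned to 0.62 without soy 149 and to 0.02 without casein 7, and was -1.03 without casein 6. Without both soy 149 and casein 6 it was -0.18 ± 0.18 (SE, interval -0.59 to 0.22, adjusted p = 0.84). Mfge8 averaged 11.31 ± 0.41 in soy and 11.21 ± 0.48 in casein, a difference of 0.10 ± 0.24 (SE, adjusted p = 0.999, interval -0.43 to 0.63) that turned to -0.10 without casein 6. Xdh averaged 11.19 ± 0.40 in soy and 11.10 ± 0.18 in casein, a difference of 0.09 ± 0.18 (SE, adjusted p = 0.997, interval -0.30 to 0.47) that turned to -0.08 without soy 149. The intervals of Mfge8 and Xdh were narrower than those of Csn1s1, Lalba and Glycam1, and they too held 0.

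**Figure D4:**
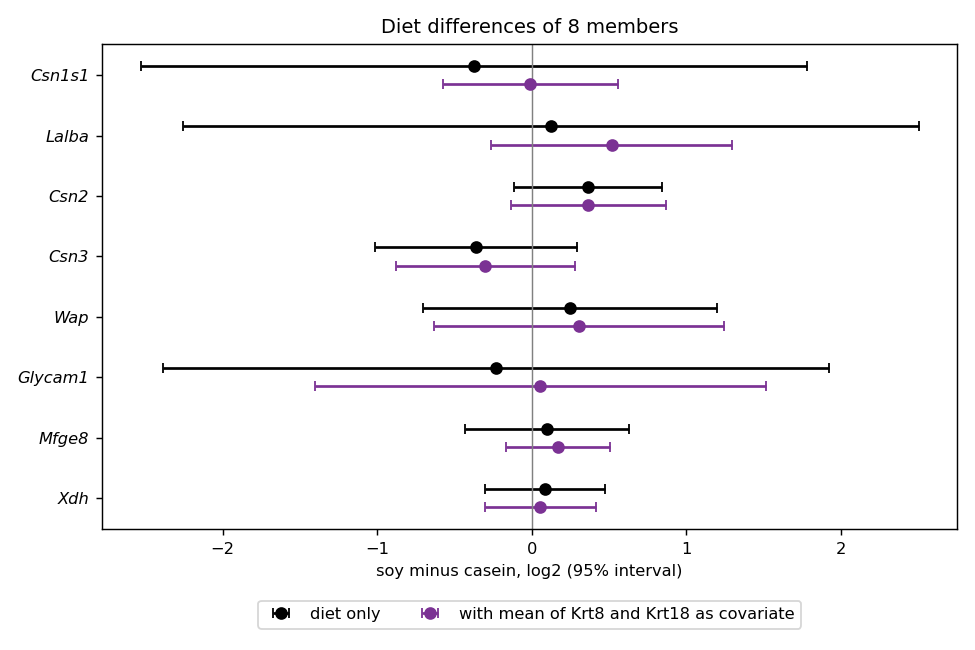
Soy minus casein difference in log2 signal (x axis) of 8 members with its 95% interval, from diet alone (black) and with the mean of Krt8 and Krt18 as a covariate (purple). All intervals include 0, and the covariate narrows those of Csn1s1 and Lalba most, while Csn2, Csn3 and Wap lie under the filter level.

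No other gene of milk secretion or of its hormonal control passed the test. Of 21 further milk and secretory genes, 16 were on the array and 10 were tested, with 3 positive and 7 negative differences, 0 called, 1 with an unadjusted p below 0.05 and a median of -0.18 over those tested, against -0.01 over all probe sets tested. Over all 16 on the array the median had the opposite sign, 0.03. Lcn2, the siderophore-binding lipocalin, was 10.42, 9.36, 9.99, 10.36 and 7.78 in soy 147, 149, 155, 157 and 159, and 8.62, 12.0, 10.47, 10.88 and 10.10 in casein 6, 7, 10, 18 and 20. It was thus low in the same arrays as Csn1s1, with a difference of -0.84 ± 0.61 (SE, adjusted p = 0.98 in limma). The gene with the unadjusted p below 0.05 was Acsl4, an arachidonate-preferring acyl-CoA synthetase, at 8.65 to 9.03 in soy and 9.06 to 9.35 in casein (-0.27 ± 0.10, SE, unadjusted p = 0.021, adjusted p = 0.98 in limma). The lactose synthase enzyme B4galt1 was at -0.25 ± 0.15 and Cidea, a lipid droplet protein that promotes milk lipid secretion in mice, at -0.29 ± 0.23 (SE, adjusted p = 0.98 for each). Of 16 regulators of prolactin response and secretory activation, 15 were on the array and 9 were tested, with 2 positive and 7 negative differences, 0 called, 2 with an unadjusted p below 0.05 and a median of -0.08. Beside both lists, 4505 of all 9520 probe sets tested had positive and 5015 negative differences, and 4.55% had an unadjusted p below 0.05 in limma. Cish, a STAT5-induced inhibitor of cytokine signalling, was 7.80, 8.83, 7.87, 7.95 and 8.50 in soy 147, 149, 155, 157 and 159, against 7.32, 6.72, 7.72, 7.23 and 7.48 in casein 6, 7, 10, 18 and 20. Its diets did not overlap, as for 0.798% of the probe sets tested, and the difference of 0.90 ± 0.24 had an unadjusted p of 0.0029 and an adjusted p of 0.98 in limma (SE). The transcription factor Cebpb was at -0.33 ± 0.14 (unadjusted p = 0.037), Id2 at -0.42 ± 0.26 and Akt1 at -0.11 ± 0.09 (SE, adjusted p = 0.98 for each in limma). The marker lists had medians of -0.21 for luminal epithelium (6 of 11 tested), -0.12 for basal epithelium (4 of 6), 0.05 for lymph node and lymphocytes (12 of 13), 0.08 for high endothelial vessels (3 of 3), 0.24 for general endothelium (4 of 4), 2.36 for skeletal muscle (8 of 8) and 0.18 for adipocytes (5 of 5), with 0 genes called in any.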

How the data were processed

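Per the labels, total RNA of whole mammary glands was made into biotin-labelled cRNA, and each sample was read on 1 array. The deposited values are linear intensity signals from the MAS5 algorithm, which the submitters' processing notes name. Its version is not given in the sources used here. The table held 15923 probe sets, 57 of them controls that were left out. A single gene was annotated for 12783 of the 15866 others, several for 312 and none for 2771.

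The deposited scaling was kept, a floor of 1 was applied and signals were put on the log2 scale. Probe sets with a mean log2 signal at or above the 40th percentile, 7.47, were tested, 9520 in all. The diets were compared with limma 3.58.1 in R 4.3.3 (intensity trend, two-sided, Benjamini-Hochberg adjustment over these probe sets, threshold 0.05). The code was checked on simulated data with independent noise per probe set, which does not mimic variation shared between genes. Members below the filter got the estimate of a fit without it and no call. Relations to Krt8, Krt18 and Cd37 (brightest probe set) were tested two-sided by permuting arrays, with 100000 resamples for 10 arrays and exactly for fewer, and adjusted over 24 relations. Arrays parted by a gap of over 50% of the range of a gene were treated as separate clusters. The fit was repeated with quantile normalization, centring on array medians, no filter, the 60th percentile as filter, 16 added before the log2, no trend, array weights, keratin and Cd37 signals as covariates, and arrays left out. Leaving out both soy 159 and casein 6 was added after seeing the data. Genes were named by rule: all members, the markers, from each list up to 4 genes of smallest p, and the 3 genes most like each tested member. The members and lists were chosen with earlier results of these data known. The number of arrays limits the precision. The labels give no litter, batch or scan date.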

Additional observations from a re-analysis of the deposited data

Results flagged for a closer look

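Of 16 combinations of a member and a diet, 3 had 1 array whose gap to the nearest other array exceeded 0.71 of the whole range, Dixon's 95% limit for 5 samples. Chance alone passes this limit in about 5% of groups. The share over all probe sets was not taken, so the count says nothing particular to the members. All 3 flags lie in soy 149 or casein 6, so they are not independent. Glycam1 stood low in soy 149 at 7.40, where the 4 remaining soy arrays spanned 11.19 to 12.10 (gap 0.81 of the range). It also stood low in casein 6 at 7.81, where the remaining casein arrays spanned 11.59 to 12.04 (gap 0.89). Lalba was 6.41 in casein 6, where the remaining casein arrays spanned 10.55 to 11.81 (gap 0.77). In casein 6 the Krt18 signal was 4.49, the lowest of all arrays, and the lymph node list mean 6.94. In soy 149 that list mean was 6.62. The part of either tissue in these values was not tested.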

How the results depend on the processing

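No probe set was called at an adjusted p below 0.05 under any of the 22 alternatives. In the main limma fit, 433 of 9520 had an unadjusted p below 0.05. Among alternatives that tested 9520, this number ran from 272 without casein 18 to 773 with both keratin and Cd37 covariates. It was 280 of 6347 with the 60th percentile filter and 843 of 15866 without a filter. No paired analysis was possible because soy and casein arrays carry different numbers. Among the differences of the 8 members, 88 values under other alternatives kept their sign and 8 turned, and with 1 array left out 69 kept it and 11 turned. No filter, the 60th percentile filter and no trend leave a difference unchanged by design. Their values, among the 88, could not turn. Lalba turned to -1.03 with array weights, -0.64 without soy 149 and casein 6, and -0.02 (-0.025) without soy 159 and casein 6. Csn1s1 kept its sign with array weights, at -1.40. Glycam1 turned to 0.056 with the keratin covariate, 0.38 with the Cd37 covariate and 0.39 with both. Xdh turned to -0.013 without soy 149 and casein 6, and Mfge8 to -0.12 without soy 159 and casein 6. Leaving out 1 array gave -1.21 to 0.30 for Csn1s1, 0.24 to 0.50 for Csn2, -0.53 to -0.24 for Csn3, -0.15 to 0.45 for Wap, -0.81 to 0.91 for Lalba, -1.03 to 0.62 for Glycam1, -0.076 to 0.20 for Xdh and -0.10 to 0.27 for Mfge8. The median over members stayed within 1 SD between arrays (0.49), but its sign turned with array weights (-0.24), with both pairs of arrays left out (-0.098 and -0.071) and over single arrays (-0.32 to 0.27). Of the correlations, Csn2 with Krt18 turned to -0.34 without soy 149 and casein 6 and -0.41 without soy 159 and casein 6 (-0.48 to 0.20 over single arrays). Csn3 with Cd37 turned to -0.42, Lalba with Cd37 to -0.059 and Xdh with Cd37 to 0.37 without soy 149 and casein 6, and over single arrays Csn3 with Cd37 ran from -0.00064 to 0.57. Csn1s1 and Lalba passed with Krt8 and Krt18 under all 15 alternatives run for correlations. Mfge8 with Krt18 missed the threshold in 5 of them, at r = 0.43 (adjusted p = 0.53) without soy 149 and casein 6 and 0.65 (adjusted p = 0.23) without casein 6. Of 360 values, from 24 relations under 15 alternatives, 4 gained a call, with adjustment within each alternative only. Mfge8 gained it with Krt8 without soy 159 (r = 0.87, adjusted p = 0.015) and with Cd37 under median centring (r = 0.76, adjusted p = 0.048). Without soy 155, Csn3 gained it with Krt18 (r = 0.75, adjusted p = 0.034) and Xdh with Cd37 (r = -0.85, adjusted p = 0.043). The causes of these changes were not tested. Dim signals limit Csn2, Csn3 and Wap.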
